A study of Homo sapiens with 41 samples.

Results

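Elongin A peaks were examined at 4 small RNA genes: RNU11, RNU12 and RNU4ATAC, which encode the U11, U12 and U4atac snRNAs of the minor spliceosome, and RNU7-1, which encodes the U7 snRNA. A peak was assigned to a gene where it lay within 1 kb of it, and the 4 genes stood among 64486 genes of the annotation. Elongin A, a subunit of an elongation factor that associates with RNA polymerase II (RNAPII), was mapped in DLD1, an established human colon cancer cell line, with no depletion, drug or other treatment named for these samples. The maps came from 7 samples: 2 CUT&RUN replicates with a goat antibody, 1 CUT&RUN sample with a mouse antibody, 1 goat IgG and 1 mouse IgG control, 1 ChIP-seq sample and 1 input. CUT&RUN releases the DNA bound by an antibody with a tethered nuclease, here in formaldehyde-fixed cells, and ChIP-seq precipitates sonicated chromatin. The analysis rests on 3 peak lists, of 8720 peaks for the goat antibody, 2338 for the mouse antibody and 186 for ChIP-seq.

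No list separated replicates, so no value below has a replicate error and no difference between genes or lists was tested. The strength of a peak is its fold enrichment, the ratio of the signal at the summit (the highest point of the peak) to the control background. The median fold enrichment was 4.32 in the goat antibody list, 4.36 in the mouse antibody list and 9.99 in the ChIP-seq list. The CUT&RUN lists differed in antibody and number of replicates, and the ChIP-seq list differed from both in method and control, so the parts of these in any difference between lists cannot be told apart.

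The minor spliceosome removes a rare class of introns. U11 and U12 act together to recognise the 5′ splice site and the branch point, and U4atac is base-paired with U6atac before the catalytic step. U7 takes no part in splicing and directs the 3′ end cleavage of replication-dependent histone pre-mRNAs. The genes of these RNAs, except the U6atac gene, are short, intronless and transcribed by RNAPII from a specialised promoter: a proximal sequence element bound by the SNAPc complex, a distal element that often holds an octamer bound by the Oct-1 protein, and a 3′ box past the gene that, with the Integrator complex, directs 3′ end formation.

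The transcribed sequences are shown first because they identify the genes. All 4 genes lie on the plus strand of hg19 (GRCh37). RNU4ATAC and RNU7-1 carry their symbols in the annotation. RNU11 and RNU12 are listed there as ENSG00000270103.3_8 and ENSG00000270022.3_8, and were matched through the start position recorded for another assembly. Gene lengths were those of RefSeq, 135 bp for RNU11, 150 bp for RNU12, 130 bp for RNU4ATAC and 63 bp for RNU7-1. The annotation gives RNU12 a length of 664 bp, with its end at position 43011913. With that end, the goat antibody and ChIP-seq summits and the downstream mouse antibody peak would lie inside RNU12. All RNU12 positions below use the RefSeq length. Capitals mark a Sm-type site, searched as AATTTNT on the transcribed strand, where the ring of Sm or Sm-like proteins assembles on such RNAs. RNU7-1 is given to base 30, since it lies within an annotated exon of C12orf57.
RNU11 (chr1:28975112-28975246): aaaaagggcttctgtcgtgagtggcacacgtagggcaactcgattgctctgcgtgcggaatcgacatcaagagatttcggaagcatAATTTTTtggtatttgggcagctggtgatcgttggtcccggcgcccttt
RNU12 (chr22:43011250-43011399): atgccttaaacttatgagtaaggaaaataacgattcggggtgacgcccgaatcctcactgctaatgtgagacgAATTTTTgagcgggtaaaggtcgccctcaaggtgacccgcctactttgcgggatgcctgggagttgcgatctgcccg
RNU4ATAC (chr2:122288457-122288586): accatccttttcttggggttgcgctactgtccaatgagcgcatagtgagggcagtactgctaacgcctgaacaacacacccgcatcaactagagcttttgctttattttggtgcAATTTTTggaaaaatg
RNU7-1, bases 1 to 30 (chr12:7052979-7053008): cagtgttacagctcttttagAATTTGTcta

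All 4 members held the Sm-type letters, from base 87 in RNU11, base 74 in RNU12, base 115 in RNU4ATAC and base 21 in RNU7-1. The same letters occurred in 9.94% of the 8998 small RNA genes of the annotation.

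The sequences upstream of the genes are shown for the promoter elements. Capitals mark the octamer ATTTGCAT, searched on either strand, and the proximal element, searched as ACCNTNNNNNNAAA on the strand of the gene only. RNU11 and RNU4ATAC are shown from 250 bases upstream to 50 bases inside the gene. RNU12 is shown for the 100 bases upstream of its start. RNU7-1 is shown for the 150 bases upstream, where the capitals mark instead the 11 bases centred on the summit of its goat antibody peak.
RNU11 (chr1:28974862-28975161): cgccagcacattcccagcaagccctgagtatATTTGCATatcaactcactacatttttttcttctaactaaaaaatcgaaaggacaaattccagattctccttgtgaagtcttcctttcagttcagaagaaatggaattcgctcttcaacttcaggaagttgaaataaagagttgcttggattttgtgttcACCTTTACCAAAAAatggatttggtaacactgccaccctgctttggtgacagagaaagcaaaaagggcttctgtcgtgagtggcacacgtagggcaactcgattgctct
RNU4ATAC (chr2:122288207-122288506): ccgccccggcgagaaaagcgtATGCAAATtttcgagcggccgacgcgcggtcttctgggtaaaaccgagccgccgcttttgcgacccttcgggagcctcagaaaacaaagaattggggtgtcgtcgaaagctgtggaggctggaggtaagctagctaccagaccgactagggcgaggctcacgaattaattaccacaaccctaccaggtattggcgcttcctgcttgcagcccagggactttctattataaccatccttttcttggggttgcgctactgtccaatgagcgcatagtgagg
RNU12 (chr22:43011150-43011249): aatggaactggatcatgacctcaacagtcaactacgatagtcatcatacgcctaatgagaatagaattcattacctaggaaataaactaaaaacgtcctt
RNU7-1 (chr12:7052829-7052978): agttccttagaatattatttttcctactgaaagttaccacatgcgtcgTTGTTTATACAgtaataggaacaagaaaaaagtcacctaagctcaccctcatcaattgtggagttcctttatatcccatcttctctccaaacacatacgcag

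The octamer began 219 bp upstream of RNU11, 229 bp upstream of RNU4ATAC and 206 bp upstream of RNU7-1, the last outside the stretch printed. At RNU4ATAC it lay on the opposite strand, so the printed line shows its reverse complement. It was not among the letters of the RNU12 window. Windows of this kind held it in 2.25% of all 64449 genes outside the mitochondrial genome and in 2.48% of small RNA genes. The proximal pattern was present 59 bp upstream of RNU11 and in no other member. It stood at the same distance in the 5 U1 genes examined and was absent from the windows of the 8 U2, U4 and U5 genes. It occurred in 2.42% of all windows and 4.26% of small RNA gene windows. The core CCCANNATG of the ZNF143 site and the 3′ box were searched as well and matched no member, and they occurred in 4.87% of all upstream windows and in 0.166% of all windows of 100 bases past gene ends. These matches are letters only, and an absent match says nothing about the factor.

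The goat antibody list held a peak at all 4 members. A peak within 1 kb was found for 9.89% of all genes, 2.48% of small RNA genes and 21.7% of protein-coding genes in this list. The ChIP-seq list held a peak at 3 of the 4, RNU11, RNU12 and RNU4ATAC, against 0.381% of all genes, 0.345% of small RNA genes and 0.783% of protein-coding genes. The mouse antibody list held peaks at 2 of the 4, RNU11 and RNU12, against 3.54%, 0.800% and 7.79% of the same gene classes. RNU11 and RNU12 were therefore found in all 3 lists, RNU4ATAC in the goat antibody and ChIP-seq lists, and RNU7-1 in the goat antibody list alone. At RNU4ATAC and RNU7-1 the mouse antibody list held no peak within 5 kb, and neither did the ChIP-seq list at RNU7-1. The map of the 4 loci places these peaks around each gene.

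**Figure D1:**
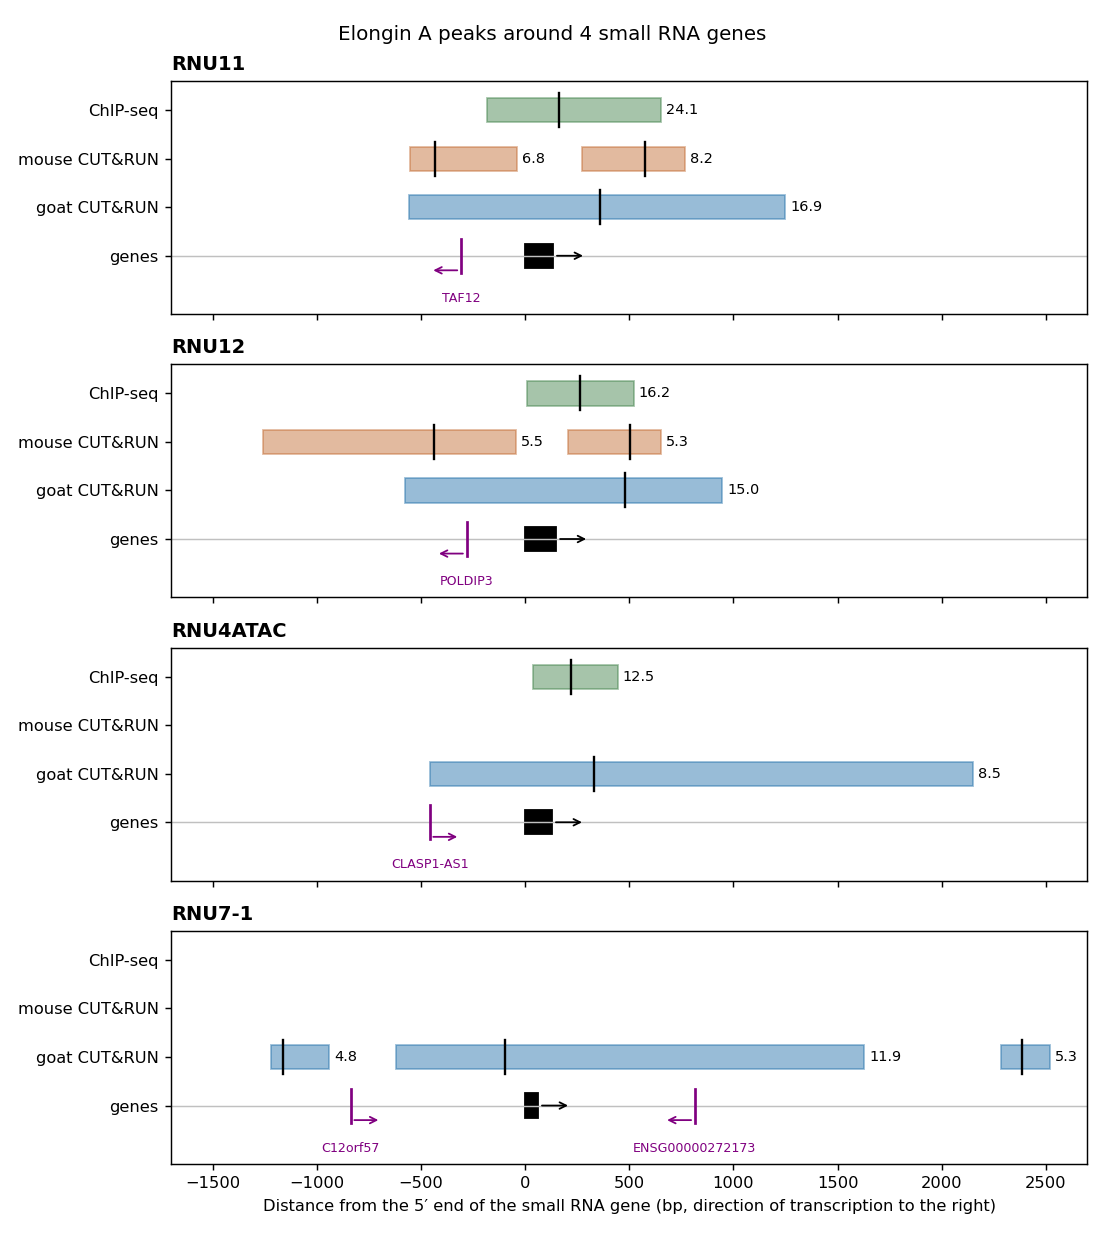
Peaks of the 3 lists at the 4 genes, plotted by distance in bp from the 5′ end of each gene, with transcription to the right. Coloured bars are peaks with their fold enrichment beside them, black ticks are summits, black boxes are the small RNA genes, and purple marks are the annotated gene starts of neighbours with their direction. Goat antibody and ChIP-seq bars lie over RNU11, RNU12 and RNU4ATAC, whereas the mouse antibody bars stop short of RNU11 and RNU12 on both sides.

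RNU11 had the strongest peak of the 4 members in every list. The goat antibody peak at chr1:28974554-28976359 had a fold enrichment of 16.9, which placed it at rank 11 of 8720. It was 1806 bp wide, began 558 bp upstream of the gene and covered all 135 bases of it. The ChIP-seq peak at chr1:28974930-28975763 had a fold enrichment of 24.1, rank 16 of 186, and also covered the whole gene. Its summit lay 30 bp past the 3′ end, and the goat antibody summit 225 bp past it.

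The mouse antibody list held a pair of peaks at RNU11, and neither overlapped the gene. The first, at chr1:28974558-28975073, had a fold enrichment of 6.76 and ended 39 bp before the gene. The second, at chr1:28975386-28975878, had a fold enrichment of 8.15, rank 17 of 2338, and began 140 bp past the gene. The gap between them measured 312 bp and contained the transcribed region. The first peak's summit was 125 bp from the start of TAF12, a TFIID subunit gene that is transcribed away from RNU11 and starts 309 bp upstream of it. The second summit was 884 bp from that start and 441 bp past the end of RNU11. TAF12-DT, a long noncoding RNA gene on the plus strand, ends at position 28975093, just before the RNU11 start at 28975112. Its end was 183 bp from the ChIP-seq summit and 378 bp from the goat antibody summit. From the mouse antibody summits it was 415 bp and 594 bp away. Signal of RNU11 and of the end of TAF12-DT cannot be told apart in these lists. The goat antibody peak spans the TAF12 start as well.

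RNU12 showed the same arrangement at a lower strength. The goat antibody peak at chr22:43010675-43012195 had a fold enrichment of 15.05, rank 15 of 8720, a width of 1521 bp and a summit 328 bp past the 3′ end. The ChIP-seq peak at chr22:43011260-43011770 had a fold enrichment of 16.2, rank 41 of 186, and a summit 116 bp past the 3′ end. It began 10 bp inside the gene and covered 140 of its 150 bases. RNU12 thus ranked close to RNU11 in the goat antibody list and lower than it in the ChIP-seq list.

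With the RefSeq length, the mouse antibody peaks again lay on either side of RNU12. The upstream peak at chr22:43009993-43011204 had a fold enrichment of 5.48, rank 342, and ended 46 bp before the gene. With 1212 bp it was the tenth widest of its list, and its summit lay 51 bp from the start of POLDIP3. POLDIP3, which encodes a protein partner of a DNA polymerase subunit, starts 282 bp upstream of RNU12 and runs in the opposite direction. The downstream peak at chr22:43011457-43011903 had a fold enrichment of 5.31, rank 410, and began 58 bp past the gene. Ranked by q-value, the order turned: the downstream peak was at rank 106 and the upstream peak at rank 512. The downstream mouse and goat antibody summits were 26 bp apart. CYB5R3, a cytochrome b5 reductase gene on the minus strand, has its annotated 3′ end 9 bp from the goat antibody summit and 17 bp from the downstream mouse antibody summit. These summits are thus closer to the end of CYB5R3 than to RNU12, and the signal of the 2 genes cannot be told apart there. The ChIP-seq summit was 221 bp from the end of CYB5R3 and 116 bp from RNU12. RNU12 also lies inside a longer minus-strand gene, ENSG00000289517, with no shared exon.

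RNU4ATAC had the weakest peak of the 4 members in the goat antibody list, with a fold enrichment of 8.48 at chr2:122287999-122290604. It stood at rank 177 by fold enrichment and 61 by q-value. At 2606 bp it was the widest of the member peaks and reached 2018 bp past the 3′ end, with a summit 199 bp past it. The ChIP-seq peak at chr2:122288493-122288900 had a fold enrichment of 12.5, rank 70 of 186, and a summit 91 bp past the 3′ end. RNU4ATAC lies inside CLASP1, a microtubule-binding protein gene on the minus strand, and inside the plus-strand CLASP1-AS1, in both without exon overlap. A CLASP1 transcript starts 136 bp upstream of RNU4ATAC, and CLASP1-AS1 starts 459 bp upstream. The ChIP-seq summit was 356 bp from that CLASP1 start and 91 bp from RNU4ATAC. The goat antibody summit was 464 bp from the same start and 199 bp from RNU4ATAC. The goat antibody peak also spans nearly all of CLASP1-AS1 (chr2:122287998-122290281). Signal of RNU4ATAC, CLASP1 and CLASP1-AS1 cannot be told apart in this peak, its width and reach included.

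RNU7-1 differed from the other members in the place of its summit. The goat antibody peak at chr12:7052357-7054607 had a fold enrichment of 11.9, rank 39 of 8720, and a width of 2251 bp. Its summit lay 97 bp upstream of the 5′ end, in the sequence printed above, and the other members' goat antibody summits lay past the 3′ end. The centre of this peak, in contrast to its summit, lay 503 bp downstream of the RNU7-1 5′ end. A separate, weak goat antibody peak at chr12:7051756-7052037, with a fold enrichment of 4.84 and rank 2976, ended 942 bp before the gene. RNU7-1 overlaps exons of C12orf57 on the same strand and of the antisense long noncoding gene ENSG00000272173. The nearest C12orf57 transcript start was 98 bp from the summit of the strong peak, and RNU7-1 was 97 bp from it, because a C12orf57 transcript is annotated to start 1 bp past the RNU7-1 start. Signal of RNU7-1 and C12orf57 cannot be told apart in this list.

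**Figure D2:**
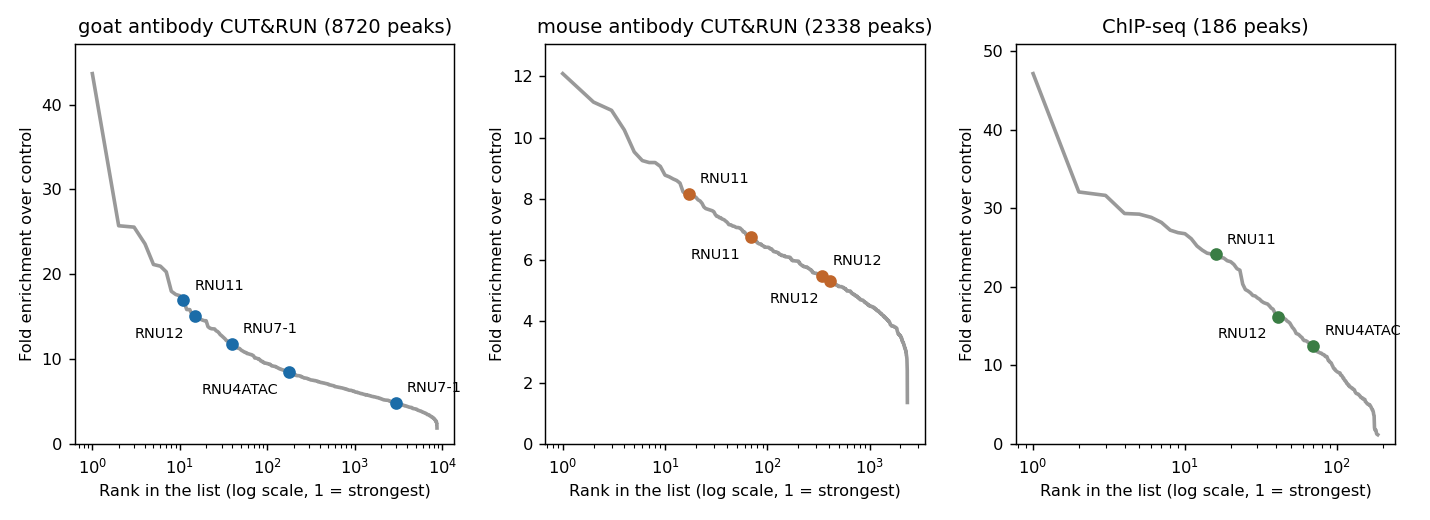
Fold enrichment over control (vertical, from 0) against rank in the list (horizontal, log scale) for all peaks of each list in grey, with peaks within 1 kb of a member as labelled points. In the goat antibody list 4 of the 5 member peaks lie in the steep left part, at ranks 11, 15, 39 and 177, and in the ChIP-seq list the 3 member peaks lie at ranks 16, 41 and 70.

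In the plot of strength against rank, the strongest goat antibody peaks at the members were among the top 0.126% of the list for RNU11, 0.172% for RNU12, 0.447% for RNU7-1 and 2.03% for RNU4ATAC. In the far shorter ChIP-seq list the same order of the 3 genes found was spread over 8.60%, 22.0% and 37.6%. In the mouse antibody list RNU11 was at 0.727% and RNU12 at 14.6%. RNU11 thus came before RNU12, and RNU12 before RNU4ATAC, wherever both were found. All 4 strongest goat antibody peaks were also wide, from 1521 to 2606 bp against a list median of 362 bp. Each spans an annotated transcript start of a neighbouring protein-coding gene: TAF12, POLDIP3, CLASP1 or C12orf57. The parts of member and neighbour in the width cannot be told apart.

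When each gene was given its strongest peak, RNU11 ranked 29, RNU12 42, RNU7-1 89 and RNU4ATAC 267 among the 6380 genes with a goat antibody peak. Several genes can share a peak, so these gene ranks are lower than the peak ranks. Among the 33 small RNA genes with a ChIP-seq peak, RNU11 and RNU12 included, the members ranked 10, 16 and 20.

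The sequences past the 3′ ends are shown because the ChIP-seq summits fell there. Each line gives the 150 bases after the gene, with the 11 bases centred on the summit in capitals.
RNU11 (chr1:28975247-28975396): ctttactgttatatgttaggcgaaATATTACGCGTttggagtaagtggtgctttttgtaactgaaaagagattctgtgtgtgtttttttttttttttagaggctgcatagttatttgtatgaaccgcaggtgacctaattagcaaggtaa
RNU12 (chr22:43011400-43011549): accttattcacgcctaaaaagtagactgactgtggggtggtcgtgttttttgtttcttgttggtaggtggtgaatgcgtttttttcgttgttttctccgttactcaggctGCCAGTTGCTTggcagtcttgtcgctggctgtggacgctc
RNU4ATAC (chr2:122288587-122288736): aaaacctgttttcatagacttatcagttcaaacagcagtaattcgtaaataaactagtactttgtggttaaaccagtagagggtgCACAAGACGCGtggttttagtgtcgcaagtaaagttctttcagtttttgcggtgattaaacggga

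The ChIP-seq summits were 30 bp, 116 bp and 91 bp past the ends of RNU11, RNU12 and RNU4ATAC. All 3 ChIP-seq peaks lay wholly within the goat antibody peak of the same gene. The goat antibody summits lay farther along, by 195 bp at RNU11, 212 bp at RNU12 and 108 bp at RNU4ATAC. With the centre of each peak in place of its summit, this order turned at RNU12, where the goat antibody centre was 185 bp and the ChIP-seq centre 265 bp from the 5′ end. A window of 32 bases around each member summit occurred once in the genome. Over the whole goat antibody peaks, windows that occurred once made up 86.4% at RNU11, 93.0% at RNU12 and 83.1% at RNU4ATAC. At RNU7-1 they made up 96.8% of the strong peak and 72.1% of the weak one. Within the genes, the share of such windows that occurred once was 88.5% in RNU11, 92.4% in RNU12, 100% in RNU4ATAC and 65.6% in RNU7-1, and the part of repeated sequence in the gaps of the mouse antibody list was not tested.

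**Figure D3:**
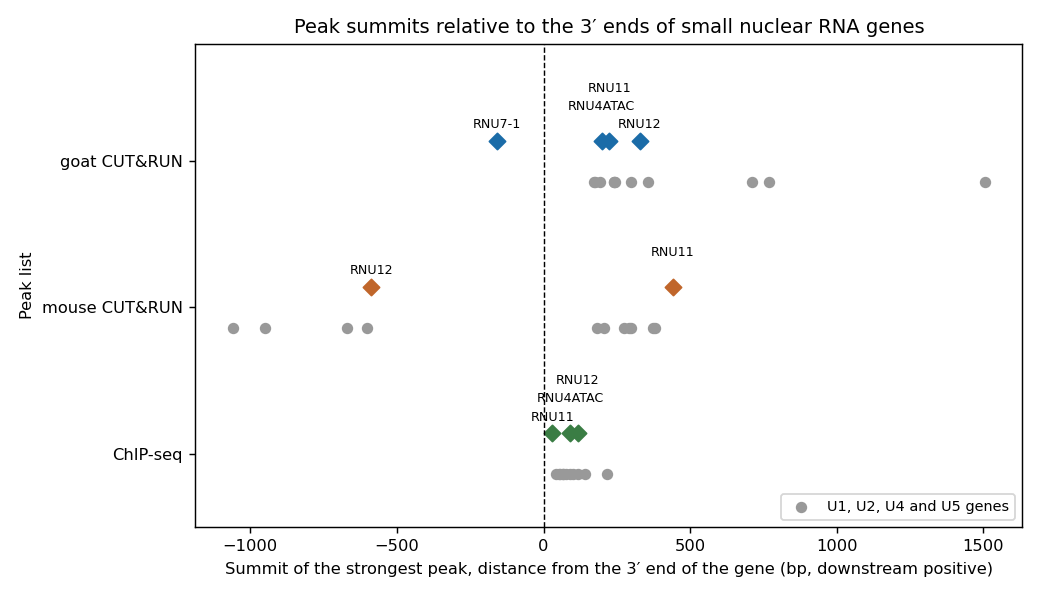
Distance in bp from the 3′ end of each gene to the summit of its strongest peak, downstream positive, for the members (labelled diamonds) and for U1, U2, U4 and U5 genes (grey circles) in the 3 lists, with the dashed line at the 3′ end. All ChIP-seq summits lie between 30 and 215 bp past the 3′ end, and RNU7-1 is the only gene with a goat antibody summit before it. RNU12 is placed by its RefSeq length.

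The members were set beside the genes of the major spliceosomal U1, U2, U4 and U5 snRNAs, which RNAPII transcribes too. Of 13 such genes in the annotation, 11 had a peak in each list, with 10 distinct peaks in the goat antibody list because RNU4-1 and RNU4-2 shared a peak. Their ChIP-seq summits lay 42 to 215 bp past the 3′ end, with a median of 77 bp, and the median of the 3 members was 91 bp. Their goat antibody summits were all past the 3′ end as well, as at RNU11, RNU12 and RNU4ATAC but not at RNU7-1. They lay 171 to 1505 bp past it, with a median of 243 bp. Both ends of this range come from the summit shared by RNU4-2 and RNU4-1, counted for each gene. RNU1-1 stood at 711 bp and RNU1-2 at 769 bp. In the mouse antibody list 7 of the 11 genes also had peaks on both sides and none over the gene, like RNU11 and RNU12, and 2 had a peak over it. RNU4-1 and RNU4-2 are both among the 7 and share the mouse antibody peak that lies between them.

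In strength the members lay within the range of these genes for the goat antibody, with a median of 13.4 against 13.6 when the peak shared by RNU4-1 and RNU4-2 was counted for each. In the ChIP-seq list the members' median was 16.2 and that of the 11 genes 26.8. RNU11, at 24.1, was close to RNU5B-1, at 24.2, and RNU4ATAC, at 12.5, was above RNU5F-1 alone, at 9.14. With 3 and 11 genes and no replicates these are descriptions of single lists.

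**Figure D4:**
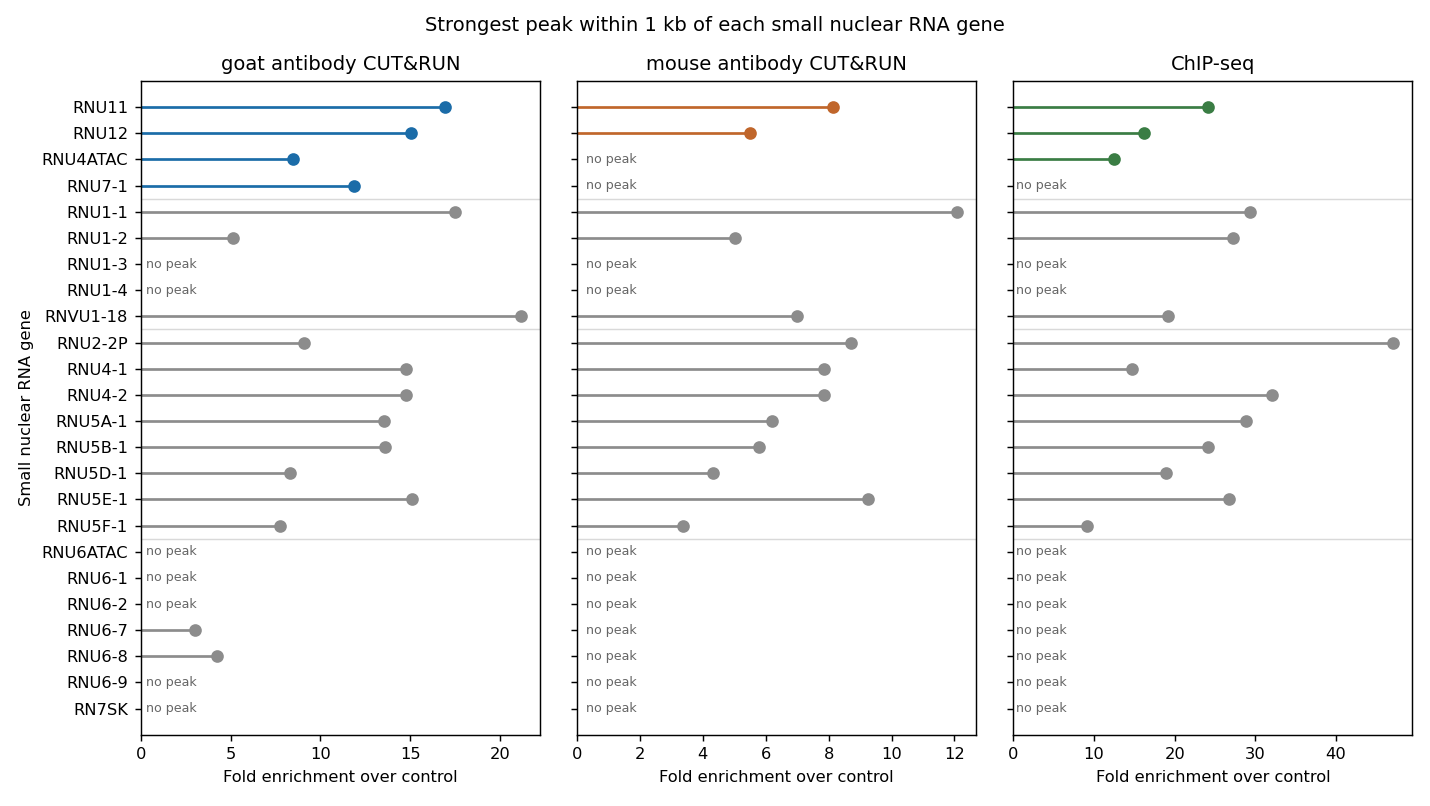
Fold enrichment over control (from 0) of the strongest peak within 1 kb of each small nuclear RNA gene in the 3 lists, with the members in colour, U1, then U2, U4 and U5, then RNA polymerase III genes in grey, and "no peak" where a list held none. RNU4ATAC and RNU7-1 lack a mouse antibody peak, whereas all 8 U2, U4 and U5 genes have one. The U1 genes RNU1-3 and RNU1-4 and the gene RNU6ATAC have no peak in any list.

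RNU6ATAC, whose U6atac RNA pairs with U4atac, is transcribed by RNA polymerase III and had no peak in any of the 3 lists. Of the 7 RNA polymerase III genes examined, only RNU6-7 and RNU6-8 had a goat antibody peak, at fold enrichments of 3.04 and 4.24 and with summits at -1012 bp and -480 bp from the 5′ end, that is upstream. None had a mouse antibody or ChIP-seq peak. With 2.48%, 0.800% and 0.345% of small RNA genes called in the goat antibody, mouse antibody and ChIP-seq lists, the absence of a peak at RNU6ATAC is what most small RNA genes showed.

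The annotation lists copies of the members elsewhere in the genome under related names. None of 4 RNU11 copies, 1 RNU12 copy and 17 RNU4ATAC copies had a peak in any list. Of 178 copies of U7, RNU7-11P and RNU7-27P had a goat antibody peak, at 3.12 and 3.98, below the 11.9 of RNU7-1, and none had a mouse antibody or ChIP-seq peak. At 1.12%, the share of U7 copies with a goat antibody peak was below the 2.48% of all small RNA genes, and with 0.800% and 0.345% of small RNA genes called in the other lists, counts this low are no result about the copies.

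Protein genes of the same pathways were examined as lists, and none of their goat antibody peaks was as strong as the 8.48 at RNU4ATAC. A peak counted here wherever it lay along the gene or within 1 kb of it, not only at the gene start. Of 14 genes for proteins specific to the minor spliceosome, 5 had a goat antibody peak (35.7%, beside 21.7% of all protein-coding genes), with ZMAT5 and RBM48 at 5.95 each. ARMC7 alone had a mouse antibody peak, at 4.78 (7.14%, beside 7.79% of all protein-coding genes). Of 15 genes for the U7 particle, histone pre-mRNA processing and polyadenylation, 2 had a goat antibody peak (13.3%), CASP8AP2 at 5.88 and WDR33, a polyadenylation factor gene, at 4.91. In this list SYMPK alone had a mouse antibody peak, at 3.58 (6.67%, beside 7.79%). CPSF4, a polyadenylation factor gene, alone had a ChIP-seq peak, at 11.9 (6.67%, beside 0.783%). The mouse antibody shares are near those of all protein-coding genes, and a single gene with a ChIP-seq peak is too few to read.

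For the machinery that makes these RNAs, goat antibody peaks were found at 6 of 10 genes for snRNA promoter factors, beside 21.7% of all protein-coding genes, led by SNAPC5, a SNAPc subunit gene, at 6.12 and TBP, the TATA-binding protein gene, at 4.31. They were found at 6 of 15 Integrator genes, led by INTS11, its endonuclease gene, at 5.03 and INTS7 at 4.98. Of 7 Sm protein genes 5 had one, led by SNRPB at 6.57 and SNRPF at 5.95. The SNRPB summit lay 1445 bp past its 3′ end, and the other 4 summits lay inside their genes. None of 5 genes of the little elongation complex and ELL, an elongation complex that acts at snRNA genes, had a peak in any list, which at a background of 21.7% in the goat antibody list is too few genes to read. The mouse antibody list held peaks at 2, 1 and 1 genes of the first 3 groups, beside 7.79% of protein-coding genes, and the ChIP-seq list at none, beside 0.783%.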

How the data were processed

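Before depositing the lists, the authors mapped their reads on hg19 using Bowtie2, discarded duplicates using Picard and ran MACS2 with its defaults, with goat IgG as the control for CUT&RUN and input for ChIP-seq. Whether mouse IgG served as control for the mouse antibody list, and how the 2 goat antibody replicates were joined, is not given in the sources used here. Fold enrichment, as deposited, is a ratio of signal to control at the summit. Each peak also carries a −log10 q-value and a −log10 p-value from the authors' peak caller, of which only the first was used, and the deposited score, which is derived from the q-value, was not used. The lists hold no read totals, so the depth is unknown.

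Lists were read with Python 3.11.15, numpy 2.4.6 and pandas 2.3.3, with positions counted from 1. The annotation was GENCODE 44 in its GRCh37 version, with member lengths taken from RefSeq and sequence read from the GRCh37 assembly. A gene had a peak where the gap between them was at most 1 kb, ranks were by fold enrichment with 1 as the strongest, and positions are those of summits. RNU11 and RNU12 are annotated as long noncoding RNAs and so are not among the 8998 small RNA genes. Motifs were searched from 250 bases before to 50 after the start and in the 100 bases past the 3′ end. The gene assignment was tested on simulated peaks. No group had replicates that could be compared, so no test was run. Genes named were the members, genes within 1 kb of them or with the start nearest a summit, the listed snRNA genes, and in each pathway list the 2 genes with the highest goat antibody fold enrichment. ARMC7, SYMPK, CPSF4 and the peak-bearing copies were named after their values were seen. The members and lists were chosen with earlier results of these data known. The alternatives were other distances, summits in place of peak edges, stricter q-values, a fold enrichment of at least 5, ranking by q-value and peak centres. Intervals used to judge shares of genes were Wilson intervals at 95%, which cover counting error only. They do not measure the uncertainty of a rank.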

Additional observations from a re-analysis of the deposited data

How the results depend on the processing

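The counts of members with a peak, 4, 2 and 3 in the goat antibody, mouse antibody and ChIP-seq lists, were recomputed under 9 alternatives each. Wider distances cannot lower a count and the goat antibody count was already at its maximum of 4, so some outcomes were fixed in advance. Of the 27 values, 26 stayed within 1.5 times the reported count. The exception was the mouse antibody list when a peak had to overlap the gene, where 0 members were left in place of 2. Both pairs of peaks flank their gene at its RefSeq length. One of the 9, annotated gene ends in place of RefSeq lengths, was chosen after seeing the data. It was applied to these counts and not to the positions. The share of all genes with a peak also depended on the setting. With a fold enrichment of at least 5 it went from 9.89% to 3.93% in the goat antibody list. In the mouse antibody list it went from 3.54% to 1.09%, and in the ChIP-seq list from 0.381% to 0.366%. Ranked by q-value, RNU4ATAC moved from 2.03% to 0.700% of the goat antibody list. RNU12 moved from 14.6% to 4.53% of the mouse antibody list, since the downstream peak was then the stronger. The uncertainty of a rank was not measured, so these moves are given as values only. With the peak centre in place of the summit, the goat antibody position of RNU7-1 turned from -97 to 503 bp from its 5′ end, that of RNU12 moved from 477 to 185 bp and that of RNU4ATAC from 328 to 844 bp, and the cause was not tested. The mouse antibody position of RNU12 moved from -438 to -652 bp, and the other 5 positions by less than 1.5 times. The lists have no replicate to leave out and their depth is unknown, so the absence of a peak at RNU4ATAC or RNU7-1 in a list says only that none was called there. No paired analysis was possible because no result came from a test.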
